A study of Homo sapiens with 2 samples.

Results

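The 10 genes described here are the PGC1 family of transcriptional coactivators (PPARGC1A, PPARGC1B, PPRC1), the nuclear transcription factors through which they act on mitochondrial genes (ESRRA, NRF1, GABPA), the machinery that transcribes mitochondrial DNA (TFAM, TFB2M, POLRMT) and the mitochondrial enzyme PCK2. They were found in the deposited table by the Ensembl identifiers of their symbols, and 10 of 10 were found among 57820 identifiers. The RNA came from HCT116, an established human cell line of colorectal carcinoma, with 1 library from cells of CREB1 wild-type genotype and 1 library from cells labelled CREB1 knockout. The knockout cells were 1 clone, made with a Cas9 nickase and guide RNAs against CREB1, and both cultures had the same serum-supplemented DMEM with penicillin and streptomycin. The question was how loss of CREB1, which binds cAMP response elements and activates transcription, goes with gene expression.

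PGC1 coactivators do not bind DNA by themselves. They dock on factors such as the estrogen-related receptor ERRalpha (the product of ESRRA), nuclear respiratory factor 1 (NRF1) and GABP, which switch on nuclear genes of the respiratory chain and of the mitochondrial transcription machinery. PPARGC1A is a textbook CREB target that is induced by cAMP in fasted liver and in brown fat. PCK2 makes phosphoenolpyruvate inside mitochondria and is also known as a target of the stress factor ATF4.

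In the knockout library PCK2, PPARGC1B and ESRRA were lower, at 61.1%, 74.9% and 75.2% of the wild-type level, and POLRMT was at 81.1%. GABPA was at 114% of the wild-type level. The ratios of PPRC1, NRF1 and TFB2M were within counting error of no difference, TFAM was at 89.1%, and PPARGC1A was not detectable beyond 1 read. With 1 library of each genotype no replicate spread exists and no p-value can be given, and every interval below is an exact 95% Clopper-Pearson interval for counting error only. In a bulk library, fewer cells of a type and less RNA per cell cannot be told apart. Genotype, clone, culture and library go together in this design, so differences between them cannot be told apart either.

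Promoter windows show which of these genes carry letters of the factors the family works with. RefSeq windows of 300 bases, from 250 before to 50 after the transcript start (build GRCh38.p14), were found for 9 of the 10 genes, with 10 windows because PPARGC1A had 2. Searched on both strands were the cAMP response element TGACGTCA, its half-site TGACG, the NRF1 core GCATGCGC, the ETS core CCGGAAG that GABP recognises, the ERR half-site AAGGTCA and the ATF4 response letters TGATGNAA. The half-site is contained in the full cAMP response element, and no other pair of these motifs contains one another. Of all 35116 windows in the table, 1.85% held the full cAMP response element, 24.6% its half-site, 3.05% the NRF1 core, 10.3% the ETS core, 3.92% the ERR half-site and 3.62% the ATF4 letters. The NRF1 core was in the windows of 3 of the 9 genes (ESRRA, TFB2M and POLRMT), the ETS core in 2 (POLRMT and GABPA) and the half-site in 1 (PPARGC1A), and the other searched letters were in none. The windows with a match are shown 5′ to 3′ on the strand of the gene, with the matching letters in capitals.
ESRRA: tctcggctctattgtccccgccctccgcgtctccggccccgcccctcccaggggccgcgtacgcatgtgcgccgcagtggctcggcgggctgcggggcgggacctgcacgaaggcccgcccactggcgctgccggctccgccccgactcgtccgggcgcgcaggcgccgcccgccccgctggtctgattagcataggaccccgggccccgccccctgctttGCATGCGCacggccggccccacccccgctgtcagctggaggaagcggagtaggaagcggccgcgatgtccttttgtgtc
POLRMT: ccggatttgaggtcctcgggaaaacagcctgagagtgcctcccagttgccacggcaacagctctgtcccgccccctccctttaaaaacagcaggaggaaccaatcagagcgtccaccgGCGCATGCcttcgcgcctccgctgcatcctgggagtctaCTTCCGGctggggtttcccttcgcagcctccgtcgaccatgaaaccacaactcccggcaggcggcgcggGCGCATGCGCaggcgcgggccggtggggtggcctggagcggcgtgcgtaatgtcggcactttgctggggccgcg
TFB2M: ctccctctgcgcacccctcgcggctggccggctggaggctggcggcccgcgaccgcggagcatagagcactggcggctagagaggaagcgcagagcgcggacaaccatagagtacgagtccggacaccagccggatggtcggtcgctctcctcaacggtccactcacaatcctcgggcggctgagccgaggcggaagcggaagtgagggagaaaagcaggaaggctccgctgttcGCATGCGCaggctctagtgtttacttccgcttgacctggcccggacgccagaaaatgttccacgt
GABPA: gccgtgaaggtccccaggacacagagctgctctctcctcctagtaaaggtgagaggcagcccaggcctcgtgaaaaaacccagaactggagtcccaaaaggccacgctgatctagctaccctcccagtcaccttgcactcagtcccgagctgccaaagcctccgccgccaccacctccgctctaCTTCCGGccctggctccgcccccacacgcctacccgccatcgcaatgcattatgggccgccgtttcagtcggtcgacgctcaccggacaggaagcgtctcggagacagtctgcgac
PPARGC1A: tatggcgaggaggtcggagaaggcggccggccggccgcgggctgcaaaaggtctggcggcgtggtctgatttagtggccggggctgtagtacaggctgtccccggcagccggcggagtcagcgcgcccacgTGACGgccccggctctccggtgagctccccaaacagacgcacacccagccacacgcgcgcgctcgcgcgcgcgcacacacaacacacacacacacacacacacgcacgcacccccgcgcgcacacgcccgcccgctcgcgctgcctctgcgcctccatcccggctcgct
The ESRRA window lies at chr11:64305274-64305573 on the plus strand, and its NRF1 core begins 29 bases before the start. That of POLRMT lies at chr19:633488-633787 on the minus strand. It holds the NRF1 core at 132 bases before the start and again as a palindrome that begins 24 bases before it and matches on both strands, with the ETS core between them at 93 bases. For TFB2M, at chr1:246566212-246566511 on the minus strand, the NRF1 core begins 15 bases before the start. In GABPA, at chr21:25734722-25735021 on the plus strand, the ETS core begins 66 bases before the start. The PPARGC1A window shown is that of its far upstream start, at chr4:24472856-24473155 on the minus strand, and its half-site begins 119 bases before the start. Such matches are descriptions of letters and not evidence of binding. The windows cover only the listed starts, and letters at other starts or farther away were not searched. A window without a match therefore does not show that the gene lacks the letters, PPARGC1A and PPARGC1B included.

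The depth behind these values was 34511071 (wild-type) and 31178312 (knockout) expected counts. Levels are given as CPM, TMM-scaled counts relative to the library total, and genes with a mean of at least 1 CPM over both libraries counted as expressed. CREB1 itself had 614 wild-type and 499 knockout counts (log2 ratio -0.23, interval -0.40 to -0.05), and a gene-level count does not check a small deletion. Of 10 epithelial markers 6 were expressed, and their log2 ratios included those of KRT8 (-0.20), KRT18 (-0.26), KRT19 (-0.13) and CDH1 (0.18). CDX1 had 0 counts in both libraries. The summed level of these markers was 4019 CPM in the wild-type and 3521 CPM in the knockout library. Of 9 markers of leukocytes, fibroblasts, endothelium and smooth muscle, 2 were expressed (COL1A1, log2 ratio 0.17, and ACTA2, 0.06), PTPRC and CD3E were at 0 in both libraries, and the sum was 5.97 and 6.47 CPM.

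Among the coactivators, the founding member was not detectable. PPARGC1A (ENSG00000109819.4, chromosome 4) had 1 wild-type and 0 knockout counts. Both values lie under the limit of 3 counts, which corresponds to 0.0892 CPM in the wild-type and 0.0938 CPM in the knockout library, so no ratio is given. A difference in PPARGC1A was therefore not detectable at this depth.

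PPARGC1B (ENSG00000155846.12, chromosome 5), which encodes the close relative PGC-1beta, had 249 wild-type and 177 knockout counts (7.40 and 5.54 CPM). The knockout library was the lower one, with a log2 ratio of -0.42 (interval -0.71 to -0.14). Of all expressed genes, 21.1% had a ratio this far from 0 or farther, in either direction. PPRC1 (ENSG00000148840.6, chromosome 10), which encodes the growth-responsive family member PRC, had 1103 and 1096 counts, or 32.8 and 34.3 CPM. Its log2 ratio was 0.06 (interval -0.06 to 0.19), which includes no difference and does not overlap the interval of PPARGC1B.

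Levels of different genes are compared per kilobase of length. Per kilobase of merged exons, PPRC1 had 5.38 CPM in the wild-type library and PPARGC1B 0.574, so that PPRC1 made up 90.3% of the summed level of the family there and 92.9% in the knockout library. Per kilobase of coding sequence these shares were 73.0% and 79.2%. PPRC1 thus had the highest level of the 3 coactivators in both libraries and by both lengths.

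**Figure D1:**
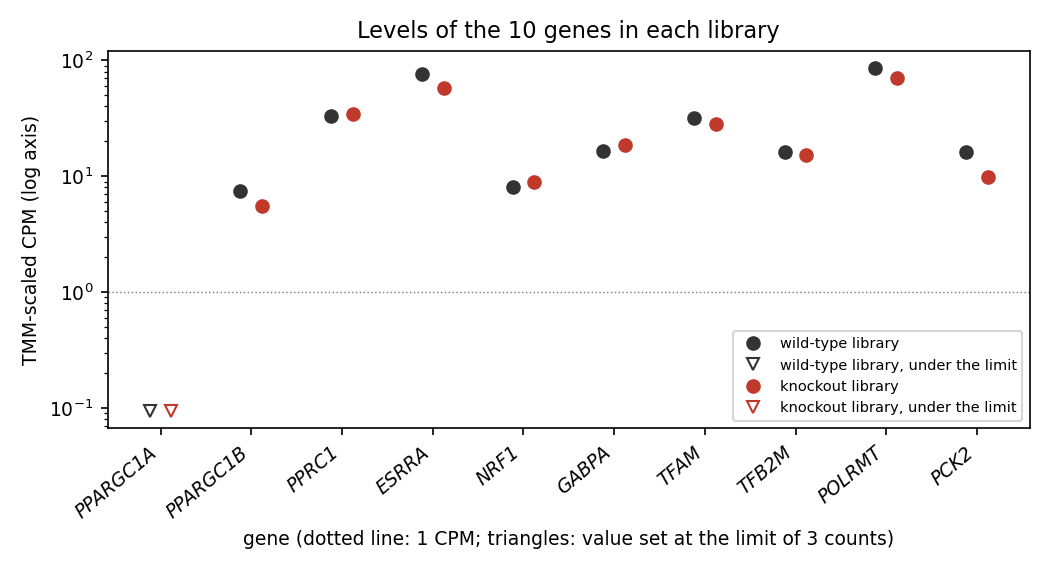
TMM-scaled CPM on a log axis for each of the 10 genes in the wild-type (black) and knockout (red) library, 1 library each. POLRMT and ESRRA were the highest in CPM, not corrected for length, and both PPARGC1A values are drawn as triangles at the limit of 3 counts.

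The transcription factors did not share a direction. ESRRA (ENSG00000173153.9, chromosome 11), the gene of an orphan nuclear receptor that partners PGC1 coactivators, had 2566 wild-type and 1833 knockout counts (76.3 and 57.3 CPM). It was lower in the knockout library, with a log2 ratio of -0.41 (interval -0.50 to -0.32), and 21.6% of the expressed genes had a ratio this far from 0 or farther. The annotated ESRRA gene overlaps the oppositely oriented TRMT112 over 284 bases, and TRMT112 had a log2 ratio of -0.12. Whether the counting used strand is not stated in the labels, so reads from the overlap cannot be assigned with certainty. The processed pseudogenes ESRRAP1 and ESRRAP2 had at most 3 counts.

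NRF1 (ENSG00000106459.10, chromosome 7), the nuclear respiratory factor, had 271 and 284 counts, or 8.05 and 8.88 CPM. Its log2 ratio of 0.14 had an interval of -0.10 to 0.39, which includes no difference. GABPA (ENSG00000154727.6, chromosome 21), the DNA-binding subunit of GABP, had 552 wild-type and 598 knockout expected counts (16.4 and 18.7 CPM). The log2 ratio of GABPA was 0.19 (interval 0.02 to 0.36), and 52.9% of the expressed genes had a ratio this far from 0 or farther. With DESeq2 size factors the interval of GABPA included no difference. Its expected counts were fractional, as RSEM leaves them where reads fit more than 1 gene, and the pseudogene GABPAP had 7.97 and 2.67 expected counts.

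The 3 genes of the machinery that transcribes mitochondrial DNA had ratios below 0, and the intervals of 2 of them lay below 0. POLRMT (ENSG00000099821.9, chromosome 19), the mitochondrial RNA polymerase, had 2897 wild-type and 2233 knockout counts (86.1 and 69.8 CPM). Its log2 ratio was -0.30 (interval -0.38 to -0.22), and 33.8% of the expressed genes had a ratio this far from 0 or farther. TFAM (ENSG00000108064.6, chromosome 10), which packs mitochondrial DNA and opens its promoters, had 1066 and 903 counts, or 31.7 and 28.2 CPM. The log2 ratio of TFAM was -0.17 (interval -0.30 to -0.04). With total-count scaling it was -0.09 (interval -0.22 to 0.04), which includes no difference. TFB2M (ENSG00000162851.6, chromosome 1), the initiation factor that melts the promoter for POLRMT, had 543 and 487 counts, or 16.1 and 15.2 CPM. Its log2 ratio of -0.08 had an interval of -0.26 to 0.10, which includes no difference. The intervals of POLRMT, TFAM and TFB2M overlap in part. Overlap of intervals does not test a difference between genes, so no order among these 3 ratios is given.

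Which of the 3 had the highest level depended on the length used. Per kilobase of merged exons, POLRMT led with 16.8 CPM in the wild-type and 13.6 CPM in the knockout library, ahead of TFB2M (8.73 and 8.24) and TFAM (5.65 and 5.04). Per kilobase of coding sequence, TFAM led with 42.9 and 38.3 CPM, ahead of POLRMT (23.3 and 18.9) and TFB2M (13.6 and 12.8). Over all 10 genes, ESRRA was the highest in both libraries by both lengths (25.2 and 18.9 CPM per kilobase of merged exons), and PPARGC1B was the lowest of the expressed genes.

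PCK2 (ENSG00000100889.7, chromosome 14) had the lowest ratio of the 9 expressed genes. It had 548 wild-type and 318 knockout counts (16.3 and 9.94 CPM). The log2 ratio was -0.71 (interval -0.92 to -0.51), and 7.09% of the expressed genes had a ratio this far from 0 or farther, and 3.81% of all expressed genes were at or below PCK2. Its interval overlaps that of PPARGC1B and lies below those of ESRRA and of the other 6 expressed genes. The annotated PCK2 locus overlaps the oppositely oriented NRL over 16546 bases, but NRL had 34 and 25 counts. The cytosolic form PCK1 was at 0 counts in both libraries, so PCK2 was the detected phosphoenolpyruvate carboxykinase.

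**Figure D2:**
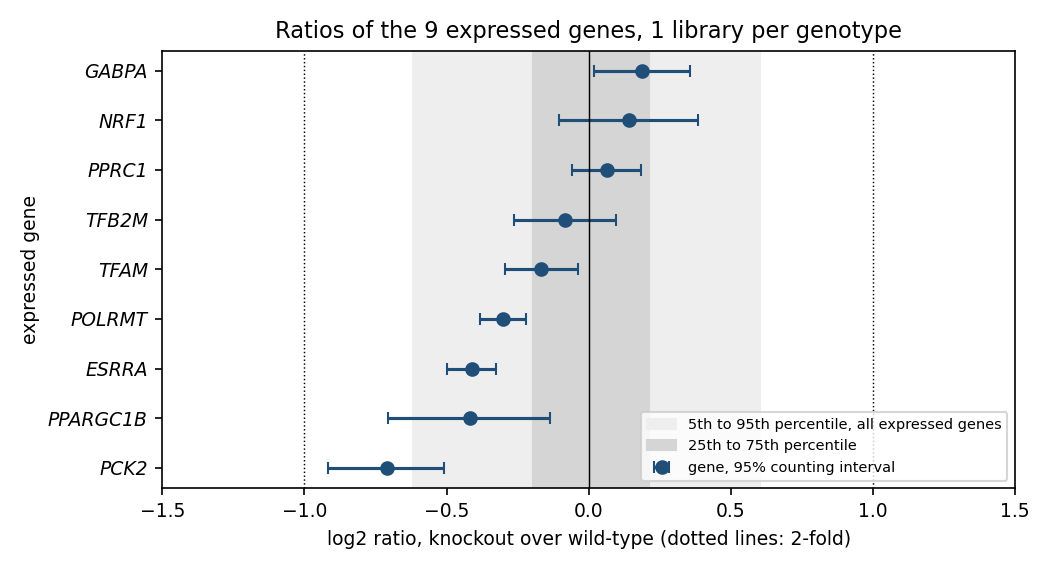
Log2 ratio, knockout over wild-type, of the 9 expressed genes with 95% counting intervals, over grey bands for all expressed genes. PCK2 lies at -0.71, outside the 5th to 95th percentile band (-0.62 to 0.60), and the other 8 lie within it.

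Against all 12886 expressed genes, the 9 expressed genes of the set stood as follows. None was called at 2-fold with an interval off 0, where 1.64% of all expressed genes were called lower and 1.28% higher (1.30% and 1.56% with total-count scaling). At a smaller threshold, a log2 ratio at least 0.32 from 0, 3 of 9 were called lower (PCK2, PPARGC1B and ESRRA), where 13.1% of all expressed genes were, and 0 were called higher, where 14.1% were. With total-count scaling the same calls covered 9.72% and 19.6% of all expressed genes, and 3 of the set were again called lower. Without a fold threshold, the interval lay below 0 for 5 of 9 and above 0 for 1 of 9, beside 25.5% and 26.4% of all expressed genes. Intervals narrow as counts rise, so shares of this kind, here and below, depend on level as well as on ratio. The median log2 ratio of the 9 was -0.17, against 0.01 for all expressed genes. These are descriptions of 2 libraries, and no test of the set was made.

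Position on the chromosome was compared next. For each gene the median was taken over up to 10 expressed protein-coding genes on either side, in the gene order of GRCh38. PCK2 lay at -0.71 in surroundings with a median of 0.11, where 5 of 20 neighbours were below 0 and 1 of 20 was as low. ESRRA (median of neighbours -0.07) and PPARGC1B (-0.10) were each at or above 2 of their 20 neighbours. POLRMT lay at -0.30 beside a median of 0.02, with 4 of 17 neighbours as low, and that median was -0.03 with 5 and -0.07 with 20 genes on either side. TFAM differed little from its surroundings, which had a median of -0.23 with 14 of 20 neighbours below 0. For TFAM the surroundings depended on the window, with a median of -0.07 over 20 genes on either side.

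**Figure D3:**
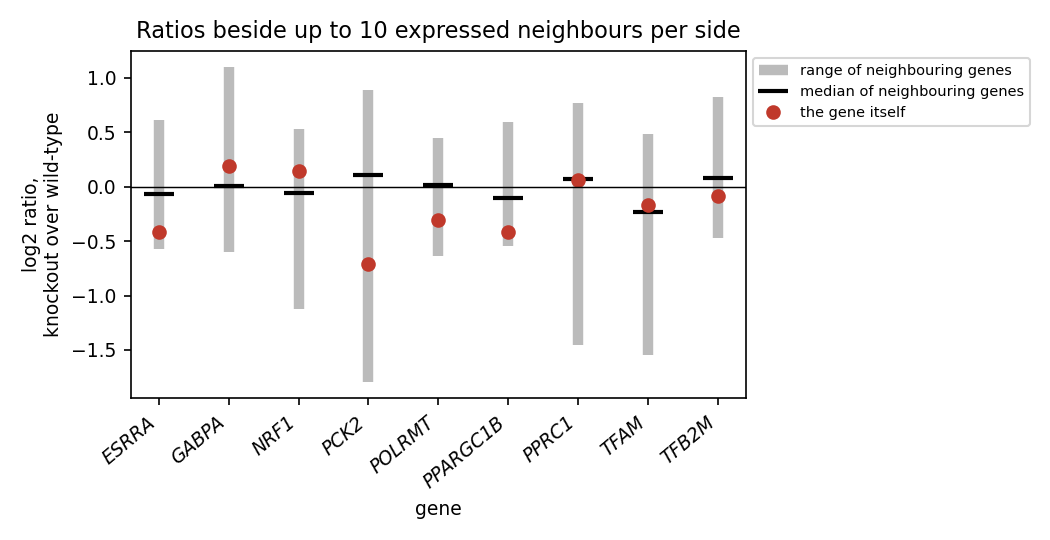
Log2 ratio of each expressed gene (red), with the median (black bar) and range (grey) of up to 10 expressed protein-coding genes on either side. PCK2 (-0.71) lies far below the median of its neighbours (0.11), while TFAM (-0.17) lies next to its own (-0.23).

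Some of these genes start near an oppositely oriented gene. GABPA and ATP5PF, a subunit gene of ATP synthase, have annotated starts 1103 bases apart and overlap. ATP5PF had 581 wild-type and 629 knockout counts, with a log2 ratio of 0.19 (interval 0.02 to 0.35) beside 0.19 for GABPA. TFB2M starts 120 bases from CNST, which had 420 and 364 counts and a log2 ratio of -0.13 (interval -0.34 to 0.07) beside -0.08. NRF1 starts 84 bases from the noncoding AC078846.1, which had 167 and 180 counts and a log2 ratio of 0.18 (interval -0.13 to 0.49) beside 0.14. The intervals of both partners include no difference in the last 2 pairs. GABPA and ATP5PF overlap over 1104 bases, and with the use of strand in the counting unknown their reads there cannot be told apart, so their ratios are not independent.

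The promoter letters shown above were also set beside the ratios of all genes that hold them. Of 609 expressed protein-coding genes with the NRF1 core, 47.5% had a ratio below 0 and the median was 0.02, and over 2163 genes with the ETS core the values were 45.1% and 0.03. Over all 9267 expressed protein-coding genes with a window, 48.5% lay below 0 and the median was 0.01. ESRRA (-0.41), POLRMT (-0.30) and TFB2M (-0.08) thus lay below the median of the genes that share the NRF1 core. The interval of TFB2M (-0.26 to 0.10) includes that median. The 362 genes with the full cAMP response element, which none of the 9 held in the windows searched, had a median of -0.05 with 57.5% below 0.

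Among partners of the PGC1 coactivators and proteins that modify them, 28 of 32 listed genes were expressed, and their log2 ratios had a median of 0.13. The interval lay above 0 for 11 of 28 and below 0 for 6, beside 26.4% and 25.5% of all expressed genes. At the smaller threshold 5 of 28 were called higher and 2 lower, where 14.1% and 13.1% of all expressed genes were, so the share called higher was near that of all genes. PRKAA2, a catalytic subunit of the energy sensor AMPK, had 71 wild-type and 281 knockout counts (log2 ratio 2.05, interval 1.68 to 2.45). It was the 1 gene of 28 called at 2-fold, where 1.28% of all expressed genes were called higher. CREBBP, an acetyltransferase and coactivator of CREB, had a log2 ratio of 0.81 (interval 0.60 to 1.02). LPIN1, which also coactivates with PGC-1alpha, had -0.77, and the AMPK subunit PRKAG1 had -0.52.

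Cofactors and neighbours of NRF1 and GABP on promoters, 13 of 13 expressed, had a median of 0.07 with 8 above 0. For this list and the next 2, 48.8% of all expressed genes lay below 0, with a median of 0.01. MYC, which is known to drive growth and mitochondrial genes, had 4334 and 1889 counts (log2 ratio -1.12, interval -1.20 to -1.05). It was the 1 gene of 13 called at 2-fold, where 1.64% of all expressed genes were called lower. NFYA (0.57), HCFC1 (0.55) and NFYC (0.23) followed in distance from 0. The other factors of mitochondrial DNA transcription and replication, 19 of 19 expressed, divided evenly, with 10 below and 9 above 0 and a median of -0.06. POLG2, the accessory subunit of the mitochondrial DNA polymerase, had -0.55, whereas the nuclease gene EXOG had 0.71, the termination factor gene MTERF1 0.49 and the ligase gene LIG3 0.39. Genes of mitochondrial RNA processing, 20 of 20 expressed, had a median of -0.06 with 11 below 0. FASTK (0.44), SUPV3L1 (-0.38), TRMT10C (-0.37) and FASTKD1 (-0.34) were farthest from 0 there. No gene of these last 2 lists was called at 2-fold, where 1.64% of all expressed genes were called lower and 1.28% higher.

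Respiratory chain, import and citrate cycle genes known as targets of NRF1, GABP or ERRalpha lay mostly below 0, by small amounts. Of 43 listed genes, 43 were expressed and 33 lay below 0, with a median of -0.14 on the log2 scale. Over all expressed genes 48.8% lay below 0 and the median was 0.01. The interval lay below 0 for 26 of 43 and above 0 for 7, beside 25.5% and 26.4% of all expressed genes. These shares are not like for like, because intervals narrow as counts rise. The summed level of the 43 genes was 5829 CPM in the wild-type and 5096 CPM in the knockout library. At the smaller threshold 8 of 43 were called lower and 3 higher, where 13.1% and 14.1% of all expressed genes were. None was called at 2-fold, where 1.64% of all expressed genes were called lower and 1.28% higher. SDHB, the iron-sulfur subunit of complex II, had 2577 wild-type and 1627 knockout counts (log2 ratio -0.59), and cytochrome c (CYCS) had 4509 and 3059 (-0.49). SDHC (0.56) and the assembly factor gene SURF1 (0.44) lay on the other side.

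The mRNAs that POLRMT, TFAM and TFB2M produce from mitochondrial DNA had ratios on both sides of 0. Of 13, 9 lay below 0 and 4 above, where 48.8% of all expressed genes lay below 0. The interval lay below 0 for 8 and above 0 for 3, beside 25.5% and 26.4% of all expressed genes. At the smaller threshold 5 were called lower and 0 higher, beside 13.1% and 14.1% of all expressed genes. MT-ND6, known as the only mRNA of the light strand, had 409 and 199 counts (log2 ratio -0.96, interval -1.22 to -0.72), followed by MT-ND5 (-0.39), MT-ATP6 (-0.35) and MT-ND3 (-0.35). The mitochondrial genes lie on both strands of one circle, so without strand in the counting MT-ND6 reads cannot be told apart from antisense transcripts. MT-CO1, the most abundant of them, had a log2 ratio of 0.24, and the sum over the 13 was 1132 CPM in the wild-type and 1221 CPM in the knockout library. The wild-type sum was below the 5829 CPM of the 43 nuclear genes above. RSEM divides reads shared by similar genes, and a loss of mitochondrial reads to other identifiers was not checked. These ratios therefore do not measure the activity of POLRMT, TFAM or TFB2M.

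PCK2 was placed beside the genes of its metabolic surroundings and of ATF4. Of 19 enzymes of gluconeogenesis or of the metabolism of phosphoenolpyruvate, oxaloacetate and its precursors, 13 were expressed. Of these, 8 were below 0, and the median log2 ratio was -0.03. The transaminase GOT1 had -0.60, ME2 -0.42, GLUD1 -0.35 and ENO1 -0.29, and FBP2, G6PC and PKLR were at 0 counts like PCK1. ATF4 and its known targets, 14 of 15 expressed, had a median of -0.47 with 13 below 0, where 48.8% of all expressed genes lay below 0. At the smaller threshold 10 of 14 were called lower and 0 higher, beside 13.1% and 14.1% of all expressed genes. At 2-fold 3 of 14 were called lower, where 1.64% of all expressed genes were. These were CHAC1 (-1.37), the asparagine synthetase ASNS (-1.34) and the proline enzyme PYCR1 (-1.05). TRIB3 had -0.84, and ATF4 itself had 8200 and 5674 expected counts (-0.46). The log2 ratio of PCK2 (-0.71) lies below the median of both lists. Both lists were chosen with earlier results of these data known, so these comparisons are descriptions only. The part that ATF4 had in the PCK2 level was not tested.

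**Figure D4:**
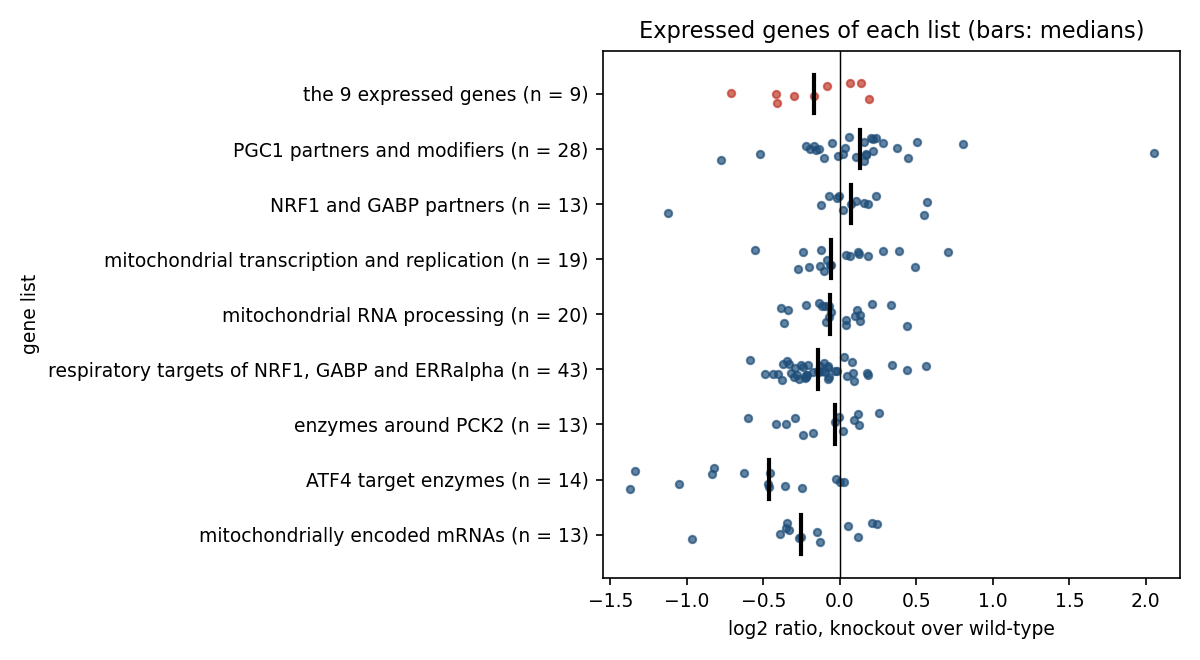
Log2 ratio, knockout over wild-type, of each expressed gene (points) in the 10-gene set (red, 9 expressed) and in 8 related lists (blue), with the median of each as a black bar. Medians run from -0.47 for ATF4 and its targets to 0.13 for PGC1 partners and modifiers, and the set lies at -0.17.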

How the data were processed

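RNA-seq libraries of ribosome-depleted total RNA were analysed, 1 per genotype. The deposited values are expected counts per gene, unscaled between libraries, made by the authors with RSEM 1.2.26 after STAR 2.4.2a and cutadapt 2.0 on build hg19, per the submitters' processing notes. No source used here gives the annotation, strand setting or filters. RSEM divides reads shared by similar genes. Names and order came from GENCODE 29 (GRCh38), which matched 90.5% of identifiers. Unmatched ones, with 37.0% (wild-type) and 35.2% (knockout) of the counts, stayed in the totals. Counts were rounded and scaled by TMM in edgeR 4.0.16 (R 4.3.3), with log2 ratios at a prior count of 0.5. Calls needed a mean of 1 CPM, a log2 ratio at least 1 or 0.32 from 0 and an interval off 0. Members and lists were chosen with earlier results of these data known, and 3 of 206 list entries matched no identifier and were not analysed here. Beside the 10 genes and CREB1, up to 4 expressed genes farthest from 0 and every gene past 2-fold were named per list. Enzymes at 0, MT-CO1, ATF4 and overlapping neighbours were named after their values were seen. Alternatives were other scalings, prior counts, expression filters, unrounded counts, window widths and lengths.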

Additional observations from a re-analysis of the deposited data

How the results depend on the processing

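The alternatives were total counts, DESeq2 1.42.0 size factors, upper-quartile scaling, TMM on protein-coding genes, totals without the 5 highest genes, a smaller prior count and one of 2, and unrounded counts. Each of the 9 expressed genes kept the sign of its log2 ratio under these 8. Over them the log2 ratio ran from -0.73 to -0.64 for PCK2, -0.43 to -0.34 for ESRRA, -0.44 to -0.35 for PPARGC1B and -0.32 to -0.23 for POLRMT, and the counting intervals of these 4 genes lay below 0 in 8 of 8. The interval of TFAM did so in 6 of 8 and that of GABPA lay above 0 in 7 of 8, while PPRC1 reached 0.14 (interval 0.02 to 0.26) with total counts. The prior count does not enter the interval, so a smaller prior count and one of 2 repeat the main interval. Unrounded counts also left the intervals of PCK2, ESRRA, PPARGC1B, POLRMT and TFAM unchanged. These repeats are counted among the 8 and add no check of the intervals. With DESeq2 size factors 4 genes rather than 3 were called lower at the smaller threshold. With total counts the medians turned positive for mitochondrial transcription and replication (0.017), mitochondrial RNA processing (0.010) and the enzymes around PCK2 (0.038), and the last was 0.0038 without the 5 highest genes. Total counts raise the ratio of every gene, and the median of all expressed genes was then 0.08. Expression filters changed no sign of a list median. The medians of neighbours moved with 5 genes on either side for ESRRA (-0.18) and NRF1 (-0.16) and turned below 0 for POLRMT (-0.03) and PPRC1 (-0.01). With 20 genes they were -0.07 for POLRMT and 0.06 for PCK2. No paired analysis was possible because each genotype has 1 library, and for the same reason no library could be left out. The counts limit precision most for PPARGC1A, PPARGC1B and NRF1.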
